A study of Mus musculus with 10 samples.

Results

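The genes described here encode the subunits of the NMDA receptor and the enzymes that make or break down the D-amino acids acting at it. They were measured in whole hippocampi of Dp1Rhr mice and control littermates. The list held 10 genes, the receptor subunits Grin1, Grin2a, Grin2b, Grin2c, Grin2d, Grin3a and Grin3b and the enzymes Srr, Dao and Ddo. Each was read from the brightest probe set that the array annotation assigns to exactly 1 gene symbol. Of the 10 genes, 9 were measured in this way, out of 19938 genes in all, and Grin1 was not analysed here. Each of the 9 had 1 such probe set. The list was drawn up with the Dp1Rhr against control values of these arrays already known, so those values are given as a description of the genes and not as independent evidence.

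Dp1Rhr mice carry an additional copy of the segment of chromosome 16 between Cbr1 and Fam3b, which gives them 3 copies of its genes in every cell. The 5 Dp1Rhr and the 5 control arrays each held RNA from the right and left hippocampi of 1 male mouse aged 16 weeks. The control mice were wild-type littermates from the crosses of the Dp5Yah and Dp1Rhr lines and carried neither duplication. The labels give the strain as C57BL/6N, whereas the study's methods name C57BL/6J. Signals are on a log2 scale, on which a difference of 1 is a doubling. None of the 10 genes lies in the duplicated segment. Grin2a is on the same chromosome, on GRCm38 from base 9567901 to base 9996083 of chromosome 16, 83.61 Mb from the segment. Grin2b is on chromosome 6, Grin2d on chromosome 7, Grin3a on chromosome 4, Grin3b and Ddo on chromosome 10, Dao on chromosome 5, and Grin2c and Srr on chromosome 11.

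NMDA receptors are glutamate-gated channels that pass calcium and are needed for many forms of synaptic plasticity in the hippocampus. Receptors of the classical kind open only when glutamate is bound to the GluN2 subunits while glycine or D-serine occupies the GluN1 subunit, and different GluN2 and GluN3 partners give channels with different kinetics, magnesium block and calcium permeability. Serine racemase makes D-serine from L-serine. D-amino acid oxidase, the product of Dao, degrades D-serine and other neutral D-amino acids. D-aspartate oxidase, the product of Ddo, degrades D-aspartate, which can itself activate the receptor at its glutamate site, and both oxidases are peroxisomal flavoenzymes.

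The promoters of Ddo and Grin2c are shown because these were the genes on the list with the largest differences between the groups. RefSeq on GRCm38.p6 gave a promoter window for 7 of the 10 genes, each from 250 bases before to 50 bases after an annotated transcription start. The first 221 bases of each window are printed on the coding strand. Capitals mark the CCAAT motif in Ddo and the GC box motif GGGCGG in Grin2c.
Ddo, chr10:40629761-40629981, plus strand: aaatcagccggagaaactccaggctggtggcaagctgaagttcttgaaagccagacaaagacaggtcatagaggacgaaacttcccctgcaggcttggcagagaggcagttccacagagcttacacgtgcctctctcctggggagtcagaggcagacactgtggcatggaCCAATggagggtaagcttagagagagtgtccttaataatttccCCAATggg
Grin2c, chr11:115267273-115267493, minus strand: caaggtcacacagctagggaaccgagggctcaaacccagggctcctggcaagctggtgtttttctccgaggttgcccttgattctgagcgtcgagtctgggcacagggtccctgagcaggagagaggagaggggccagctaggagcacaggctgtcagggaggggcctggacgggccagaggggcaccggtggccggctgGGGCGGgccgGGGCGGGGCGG
The Ddo window held 2 CCAAT motifs, whose first bases lay 80 and 37 bases before the start, and none of the other motifs searched on either strand. The Grin2c window held 3 GC boxes, whose first bases lay 50, 40 and 35 bases before the start, and the second and the third of them shared a base. It held no match to the other motifs. Both strands were searched in 32851 promoter windows of 300 bases, and 37.4% of them held CCAAT, 35.7% GGGCGG, 13.6% TATAAA and 1.79% the cyclic AMP response element TGACGTCA. The whole Ddo window was 51.7% G or C, and that of Grin2c was 70.0%. The windows of these genes therefore had no motif in common among those searched. GC boxes were also found in the window of Srr, with 4 of them and 75.3% G or C, in that of Grin1, with 1, and in 1 of the 3 windows of Dao, with 2. Another Dao window held 1 CCAAT motif.

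The arrays were alike in their overall signal, with medians between 6.77 and 6.83 and correlations between arrays of 0.996 to 0.998 over all probe sets. Of 31 measured genes of the duplicated segment, 14 were higher in Dp1Rhr at an adjusted p under 0.05 in limma and 0 were lower, with a median difference of 0.21. Dyrk1a, a protein kinase encoded there, measured 11.80, 11.76, 11.70, 11.72 and 11.65 in the control arrays and 11.97, 11.97, 12.06, 11.98 and 12.01 in the Dp1Rhr arrays. The means of the pyramidal neuron, astrocyte and oligodendrocyte markers lay between 10.81 and 11.89 in every array. The mean of 9 choroid plexus markers was 7.03 and 7.25 in control replicates 2 and 3. It was 9.01, 8.86 and 8.36 in control replicates 1, 4 and 5, and 8.53 to 9.40 in the Dp1Rhr arrays. Several results are therefore given with and without those 2 controls.

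Among the genes on the list, the RNA of D-aspartate oxidase was higher in Dp1Rhr hippocampi and that of the GluN2C subunit was lower. The remaining 7 did not pass the test, and protein was not measured on these arrays. The 2 that passed compare with 0.802% of all genes tested, 0.627% higher and 0.176% lower, and nothing is read from that comparison because the list was chosen on the same contrast. The signals of the groups did not overlap for these same genes, Ddo and Grin2c, against 3.52% of all genes, 1.82% with Dp1Rhr higher and 1.7% with Dp1Rhr lower. They were also the genes on the list that passed under FCROS, the rank method of the study, which called 5.39% of all genes. Its fixed limits set that share nearly in advance, and it read the same values, so this pass adds no independent support. In the limma fit Ddo ranked 4 by p among all genes and Grin2c ranked 93. The arrays hold RNA of the whole tissue, in which fewer cells of a type and less RNA per cell cannot be told apart.

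**Figure D1:**
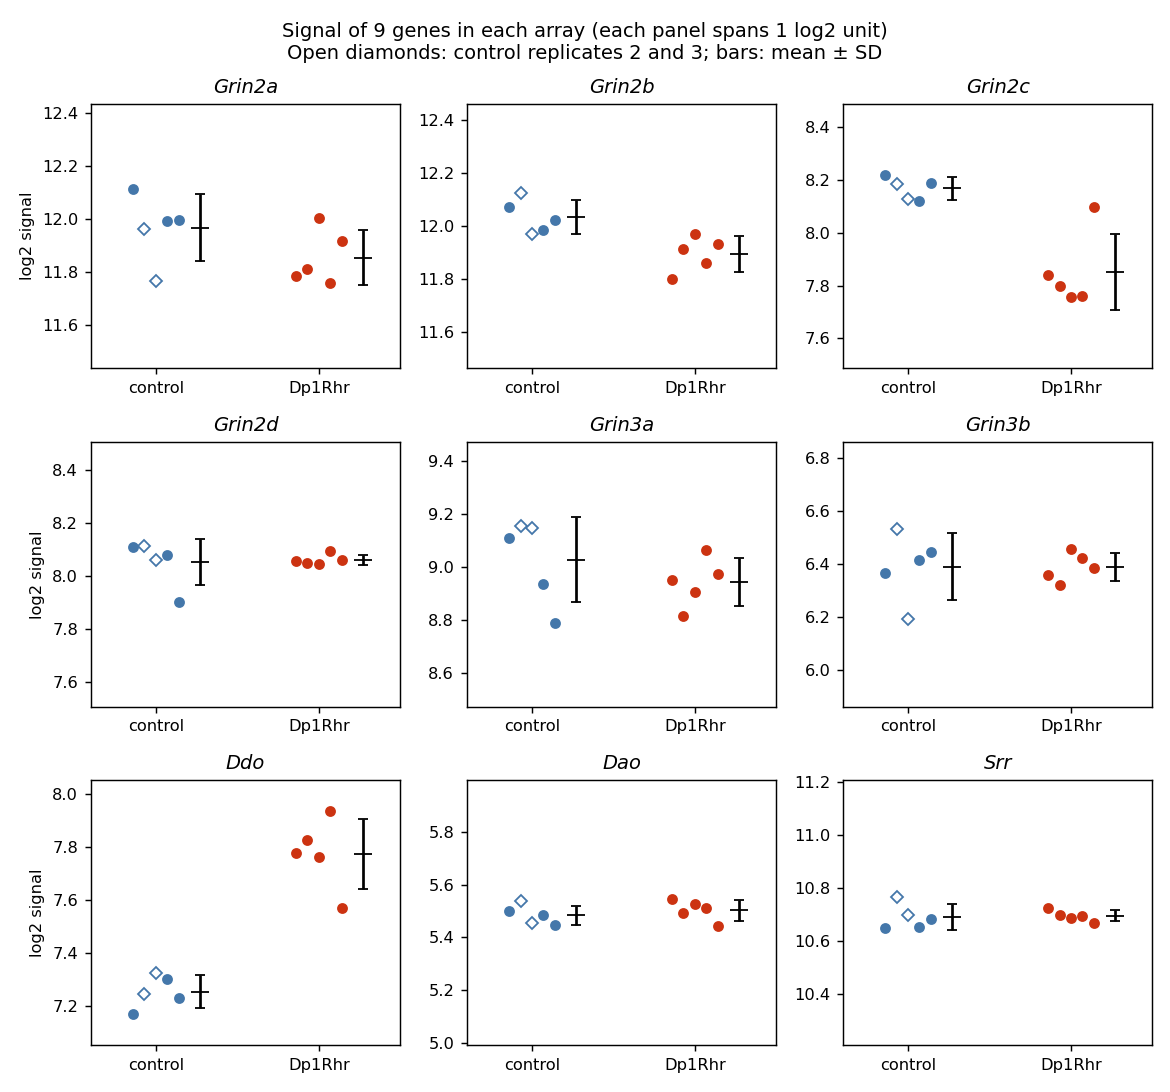
Log2 signal of each of the 9 measured genes in the 5 control and 5 Dp1Rhr arrays, 1 point per array, with bars for the mean and SD; open diamonds are control replicates 2 and 3. The groups are separate for Ddo, 7.17 to 7.33 against 7.57 to 7.94, and for Grin2c, 8.12 to 8.22 against 7.76 to 8.10, and overlap in the other panels.

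Of the receptor subunits, the GluN2 subunits bind glutamate, and GluN2A and GluN2B are the main ones in hippocampal principal neurons of the adult mouse. Grin2a, which encodes GluN2A, measured 12.11, 11.96, 11.77, 11.99 and 11.99 in the control arrays and 11.78, 11.81, 12.00, 11.76 and 11.91 in the Dp1Rhr arrays. The groups overlapped, with control replicate 3 among the lowest arrays. The difference was -0.11 ± 0.06 (SE, n = 5 and 5), with an adjusted p in limma of 0.463. Although it is on chromosome 16, the 95% interval of its difference ran from -0.25 to 0.03. Without control replicates 2 and 3 the difference was -0.18 ± 0.06, with an adjusted p in limma of 0.239.

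Grin2b encodes GluN2B, the subunit that dominates early in development and carries a long cytoplasmic tail that binds CaMKII. It measured 12.07, 12.13, 11.97, 11.98 and 12.02 in the control arrays and 11.80, 11.91, 11.97, 11.86 and 11.93 in the Dp1Rhr arrays. The Dp1Rhr values lay below every control array in 4 of the 5 mice, and only Dp1Rhr replicate 3 fell within the control range, just above its lowest value. The difference of -0.14 ± 0.04 had an interval of -0.23 to -0.05 and did not pass the test over all genes, with an adjusted p in limma of 0.126. Over the 10 leave-one-out fits the difference lay between -0.16 and -0.12, and no fit gave it an adjusted p under 0.05. Without control replicates 2 and 3 it was -0.13 ± 0.04, with an adjusted p in limma of 0.241. The mean of 5 pyramidal neuron markers differed by -0.06. Its correlation with Grin2b was 0.74 over the 10 arrays and 0.48 within the groups. For a list of 5 ependyma markers, with a difference of 0.27, these correlations were -0.87 and -0.68. The part of these cell types in the Grin2b values was not tested.

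The ratio of GluN2B to GluN2A message is often followed because it falls as synapses mature. The log2 signal of Grin2b minus that of Grin2a was 0.07 ± 0.11 (SD) in the control arrays and 0.04 ± 0.06 in the Dp1Rhr arrays, a change of -0.03 ± 0.06 (SE). The change was 0.05 without control replicates 2 and 3, so no direction was resolved. Since the signals come from separate probe sets, only the change of this ratio between groups can be read, not its size.

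Grin2c encodes GluN2C, a subunit known from cerebellar granule cells and, in the forebrain, from astrocytes and some interneurons, whose channels are weakly blocked by magnesium. The gene lies at chr11:115249169-115267297 on GRCm38. It measured 8.22, 8.18, 8.13, 8.12 and 8.19 in the control arrays and 7.84, 7.80, 7.76, 7.76 and 8.10 in the Dp1Rhr arrays. In 4 of the Dp1Rhr arrays it was well below every control array, while Dp1Rhr replicate 5 was just under the lowest control. The difference was -0.32 ± 0.06, or 0.803 of the control level, with an interval of -0.45 to -0.19 and an adjusted p in limma of 0.0411.

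The Grin2c call depended on single arrays. It was kept in 1 of the 10 fits that left out an array, the one without Dp1Rhr replicate 5, where the difference was -0.38 and the adjusted p 0.000856 in limma. In the other 9 fits the difference stayed between -0.33 and -0.29 and the adjusted p lay between 0.0526 and 0.127. Without control replicates 2 and 3 it was -0.32 ± 0.07, with an adjusted p in limma of 0.138.

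Markers of the cells Grin2c is known from were read first. The mean of 9 astrocyte markers ranged from 10.81 to 10.98 in the control arrays and from 10.85 to 10.90 in the Dp1Rhr arrays, a difference of -0.02, and 6 of the 9 were higher in Dp1Rhr. Of these 9 markers only Fgfr3, a fibroblast growth factor receptor of astrocytes, passed the test. Fgfr3 measured 9.81, 9.56, 9.58, 9.81 and 9.63 in the control arrays and 9.29, 9.29, 9.24, 9.16 and 9.55 in the Dp1Rhr arrays, where replicate 5 was again the highest. The difference for Fgfr3 was -0.37 ± 0.07, with an adjusted p in limma of 0.0471. Gja1 (-0.15) and Slc1a2 (-0.10) were also lower, with groups that did not overlap and adjusted p in limma of 0.0975 and 0.0941. The 6 that were higher differed by at most 0.13, for Slc1a3, so the list mean joins markers that moved in opposite directions. The mean of 4 cerebellar granule cell markers was 5.92 to 6.07 in the control arrays and 5.90 to 6.06 in the Dp1Rhr arrays, below the median signal of every array. The mean of 6 interneuron markers was 9.80 to 10.05 in control and 9.95 to 10.11 in Dp1Rhr arrays.

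Among the other marker lists, the pyramidal neuron list was lower in Dp1Rhr, like Grin2c, with a difference of -0.06. Its correlation with Grin2c was 0.69 over the 10 arrays and 0.32 within the groups. Several lists moved the other way between the groups. The mean of 5 oligodendrocyte markers was 11.60 to 11.73 in the control arrays and 11.68 to 11.89 in the Dp1Rhr arrays, a difference of 0.14, with all 5 higher and 0 past the test. Dp1Rhr replicate 5 was again the nearest to the controls, and the correlation of the list with Grin2c was -0.84 over the 10 arrays and -0.62 within the groups. For the ependyma list, 0.27 higher in Dp1Rhr, these correlations were -0.85 and -0.56. For a list of 5 dentate granule cell markers, 0.11 higher with 1 marker past the test, they were -0.66 and -0.09. The mean of 8 markers of the habenula and thalamus, which adjoin the dissected tissue, was 7.43 to 7.78 in the control arrays and 7.29, 8.11, 7.85, 8.17 and 7.29 in the Dp1Rhr arrays. Dp1Rhr replicates 1 and 5 were thus below every control array and the other Dp1Rhr arrays above every one, with 5 of the 8 markers higher and 0 past the test. Those higher were Chrna3 (1.17), Gpr151 (0.60), Chrnb4 (0.52), Chrnb3 (0.26) and, barely, Prkcd (0.00). Tcf7l2 (-0.86), Ramp3 (-0.27) and Slc17a6 (-0.24) were lower, like Grin2c, so the list mean joins markers that moved in opposite directions. The correlation of that list mean with Grin2c was -0.53 over the arrays and -0.64 within the groups. The part of these cell types in the Grin2c result was not tested.

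Grin2d encodes GluN2D, which forms slowly decaying channels and in the adult hippocampus is found mainly in interneurons. It measured 8.11, 8.11, 8.06, 8.08 and 7.90 in the control arrays and 8.06, 8.05, 8.05, 8.10 and 8.06 in the Dp1Rhr arrays. Control replicate 5 was the lowest of the 10 arrays and all the Dp1Rhr arrays lay within the control range. The difference was 0.01 ± 0.04, with an interval of -0.08 to 0.10 and an adjusted p in limma of 0.958.

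The GluN3 subunits bind glycine and lower calcium permeability when they join the receptor. Grin3a, which encodes GluN3A, measured 9.11, 9.16, 9.15, 8.94 and 8.79 in the control arrays and 8.95, 8.82, 8.90, 9.06 and 8.97 in the Dp1Rhr arrays. The Dp1Rhr arrays lay inside the control range. The difference was -0.09 ± 0.07, with an adjusted p in limma of 0.657. Without control replicates 2 and 3 it was -0.003 ± 0.07.

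Grin3b encodes GluN3B, known mostly from motor neurons. It measured 6.36, 6.53, 6.19, 6.41 and 6.45 in the control arrays and 6.36, 6.32, 6.46, 6.42 and 6.38 in the Dp1Rhr arrays. The Dp1Rhr arrays lay inside the control range, and the signal fell below the 40th percentile of genes, at 6.82, that was used as a cut for dim genes. The difference of 0.00 ± 0.06 had an interval of -0.12 to 0.12. Over the 6 measured subunits the median difference was -0.10, against a median of 0.00 over all genes. Nothing is read from those medians, because the list was chosen on the same contrast.

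**Figure D2:**
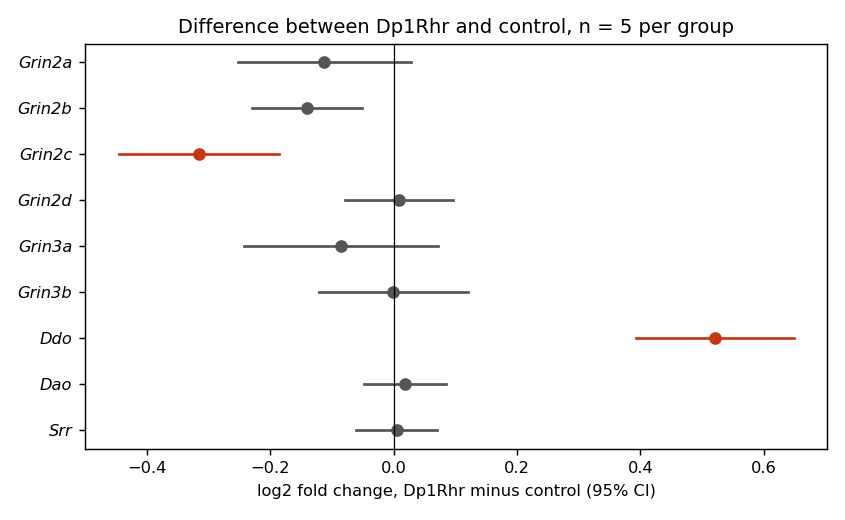
Difference in log2 signal, Dp1Rhr minus control, for each of the 9 measured genes, with its 95% interval from limma (5 arrays a group). The intervals of Ddo, Grin2c and Grin2b leave out zero, and only Ddo (0.52) and Grin2c (-0.32) had an adjusted p under 0.05 over all genes.

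Among the enzymes, Srr encodes serine racemase, the source of D-serine in the forebrain. It measured 10.65, 10.77, 10.70, 10.65 and 10.68 in the control arrays and 10.72, 10.70, 10.69, 10.69 and 10.67 in the Dp1Rhr arrays. The groups overlapped throughout. The difference was 0.00 ± 0.03, and its interval of -0.06 to 0.07 was among the narrowest of the 9 genes.

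Dao encodes D-amino acid oxidase, which in the mouse brain is best known from astrocytes of the cerebellum and hindbrain. It measured 5.50, 5.54, 5.45, 5.49 and 5.45 in the control arrays and 5.55, 5.49, 5.53, 5.51 and 5.44 in the Dp1Rhr arrays. The groups overlapped and the signal lay below the cut for dim genes, so 7 of the 9 genes passed that filter. The difference was 0.02 ± 0.03, with an adjusted p in limma of 0.853.

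Ddo encodes D-aspartate oxidase and lies at chr10:40630011-40681847 on GRCm38. It measured 7.17, 7.25, 7.33, 7.30 and 7.23 in the control arrays and 7.78, 7.83, 7.76, 7.94 and 7.57 in the Dp1Rhr arrays. Every Dp1Rhr array was above every control array, with Dp1Rhr replicate 5 the nearest to them. The difference was 0.52 ± 0.06, or 1.43-fold, with an interval of 0.39 to 0.65 and an adjusted p in limma of 0.00736. The call was kept in all 10 leave-one-out fits, in which the difference ran from 0.48 to 0.57 and the adjusted p from 0.000514 to 0.0417. Without control replicates 2 and 3 the difference was 0.54 ± 0.07 and the adjusted p in limma was 0.0505, and 0.0251% of all genes passed in that fit.

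Several marker lists moved with Ddo. The mean of 5 genes of the ependyma, the ciliated lining of the ventricles, was 6.55 to 6.87 in the control arrays and 6.87 to 7.12 in the Dp1Rhr arrays, with all 5 higher and 0 past the test. Its correlation with Ddo was 0.88 over the 10 arrays and 0.67 within the groups. The habenula and thalamus list, mixed in direction as given beside Grin2c, had a correlation with Ddo of 0.44 over the arrays and 0.64 within the groups. For the oligodendrocyte list these correlations were 0.76 and 0.30. For the interneuron list, 0.06 higher in Dp1Rhr with 4 of 6 markers higher and 0 past the test, they were 0.52 and 0.53. The mean of 5 dentate granule cell markers was 0.11 higher in Dp1Rhr, with all 5 higher and 1 past the test. That marker was Tdo2, with a difference of 0.25 ± 0.04 and an adjusted p in limma of 0.021. The correlation of the dentate list with Ddo was 0.64 over the arrays but -0.22 within the groups. The mean of 4 endothelial markers was 8.77 to 8.85 in the control arrays and 8.79 to 8.99 in the Dp1Rhr arrays, with 3 of 4 higher and 0 past the test, and its correlation with Ddo was 0.71 over the arrays and 0.21 within the groups. These correlations are descriptions, and the part of these cell types in the Ddo result was not tested. With the choroid plexus mean as a covariate the Ddo difference was 0.58 ± 0.07, with an adjusted p in limma of 0.0215.

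**Figure D3:**
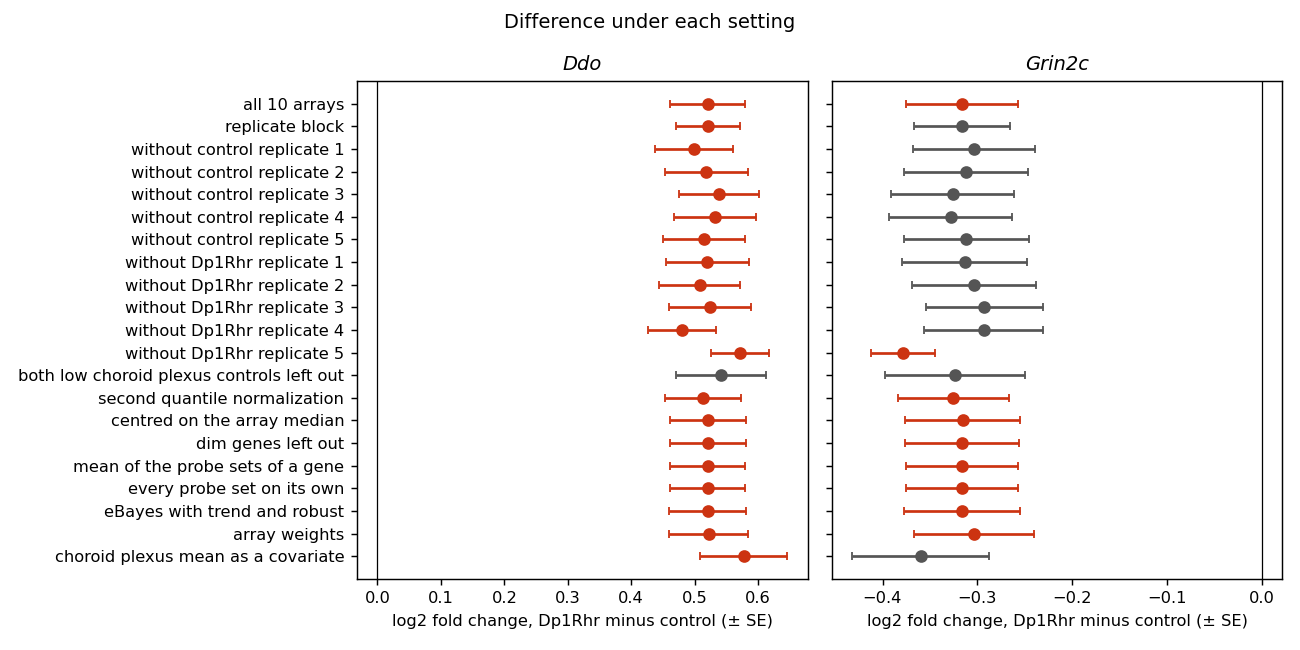
Difference in log2 signal, Dp1Rhr minus control, with its standard error for Ddo and Grin2c under each processing setting and with each array left out; red marks an adjusted p under 0.05. Ddo stayed between 0.48 and 0.58 and Grin2c between -0.38 and -0.29, while the call on Grin2c was kept in 1 of the 10 leave-one-out fits.

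Ddo and Grin2c moved in opposite directions between the groups, and also opposed each other among arrays of 1 group. Over the 5 Dp1Rhr arrays the correlation of their signals was -0.88, but it was -0.40 without Dp1Rhr replicate 5. Over the 5 control arrays it was -0.96. Taking each array as its deviation from its group mean, the correlation was -0.88 over the 10 arrays and -0.69 over the 9 arrays without Dp1Rhr replicate 5. In that replicate Ddo was the lowest and Grin2c the highest of the Dp1Rhr group. These correlations are descriptions of arrays that share their normalization, and the control group spans a narrow range of both genes.

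**Figure D4:**
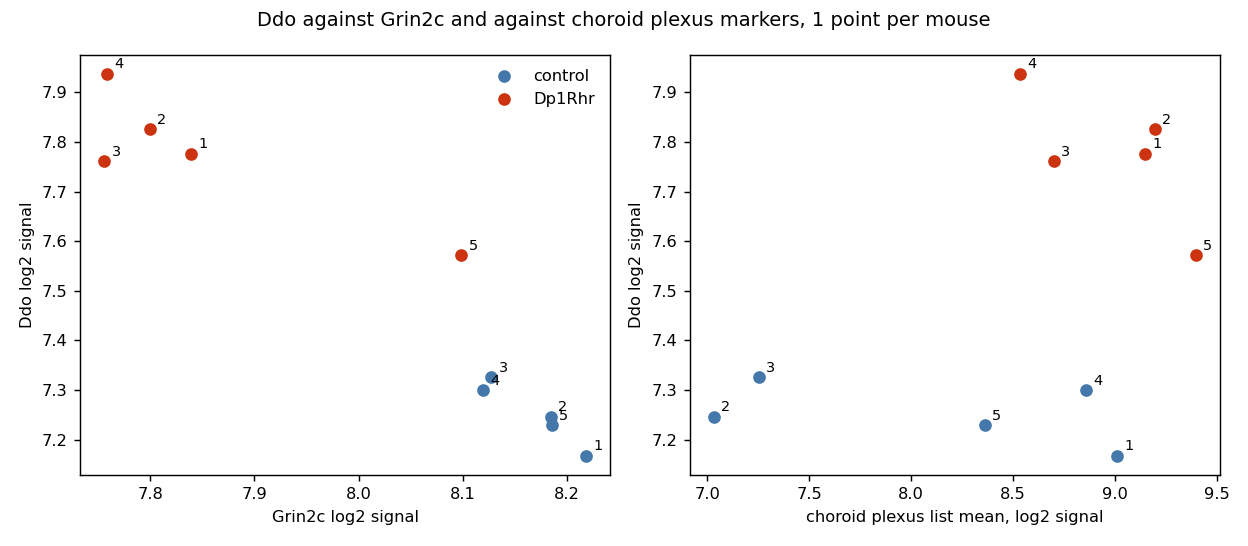
Left, log2 signal of Grin2c on the x axis against that of Ddo on the y axis, 1 point per array, numbered by replicate. Right, the mean of the choroid plexus markers on the x axis against Ddo on the y axis. In the left panel the groups form separate clusters. Dp1Rhr replicate 5 (Grin2c 8.10, Ddo 7.57) is there the Dp1Rhr array nearest to the control arrays.

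The genes most like Ddo, Grin2c and Grin2b were taken as the 5 with the highest correlation of signal over the 10 arrays, among 11962 genes above the cut for dim genes. Such correlations include the difference between the groups that also chose the list. For Ddo they were Crot (0.97), a peroxisomal carnitine acyltransferase, Smim8 (0.97), Get1 (0.97), a gene of the duplicated segment, Akt2 (0.96), a kinase of insulin signalling, and Rida (0.96), an enamine deaminase. Within the groups their correlations with Ddo ranged from 0.66 for Get1 to 0.85 for Akt2.

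For Grin2c they were Grm7 (0.95), a presynaptic glutamate receptor, Slc15a2 (0.95), a peptide transporter, Mfge8 (0.95), a secreted bridging protein for phagocytosis, Entpd2 (0.94), an ectonucleotidase, and Plxnb3 (0.93), a plexin. For Grin2b they were Pclo (0.99), a presynaptic scaffold, Ndrg4 (0.96), Slc22a23 (0.96), Fry (0.96) and Cpeb2 (0.96), a translational regulator. The genes like Grin2b followed it within the groups as well, with correlations of 0.90 to 0.97.

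Genes that work with the receptor and its co-agonists were read in 7 further lists. Of their 74 measured genes, 3 passed the test, Gldc, Junb and Dusp1, beside 0.802% of all genes. Nothing is read from that count, because the lists were chosen with earlier results of these data known. Of 10 measured AMPA, kainate and delta receptor subunits, 0 rose and 0 fell, with a median difference of -0.05. The smallest p belonged to Grik2, a kainate receptor subunit, with a mean of 10.24 ± 0.05 (SD, n = 5) in the control arrays and 10.08 ± 0.07 in the Dp1Rhr arrays. Those groups just failed to overlap, and the difference of -0.16 ± 0.04 had an adjusted p in limma of 0.076. Gria3, an AMPA receptor subunit, differed by -0.12 and Grik5, a kainate receptor subunit, by -0.11, with adjusted p of 0.130 and 0.149. Of 14 scaffolds and kinases that bind or modify the receptor, none passed either, with a median of -0.04. Those with the smallest p were Ptpn5, the phosphatase STEP (0.10), Camk2b, a CaMKII subunit (-0.05), and Src, a tyrosine kinase (-0.09).

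Of 14 genes of serine and glycine synthesis, cleavage and transport, 1 rose and 0 fell, with a median of 0.03. The gene that rose was Gldc, the decarboxylase of the glycine cleavage system, which lowers glycine. Gldc measured 9.29, 9.26, 9.41, 9.31 and 9.36 in the control arrays and 9.77, 9.74, 9.63, 9.66 and 9.47 in the Dp1Rhr arrays. The groups did not overlap, and Dp1Rhr replicate 5 was once more nearest to the controls. The difference for Gldc was 0.33 ± 0.05, with an adjusted p in limma of 0.0291, and the call was kept in 5 of the 10 leave-one-out fits, in which the adjusted p reached 0.0952, and was lost without control replicates 2 and 3, at 0.101.

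Amt, the aminomethyltransferase of the same system, measured 8.21, 8.21, 8.36, 8.13 and 8.33 in the control arrays and 8.63, 8.84, 8.39, 8.68 and 8.35 in the Dp1Rhr arrays. In Dp1Rhr replicate 5 Amt lay inside the control range, and the difference of 0.33 ± 0.09 had an adjusted p in limma of 0.0945. Slc6a9, the glycine transporter GlyT1, measured 10.65, 10.69, 10.67, 10.66 and 10.58 in the control arrays and 10.48, 10.53, 10.49, 10.50 and 10.61 in the Dp1Rhr arrays. Only Dp1Rhr replicate 5 overlapped the controls, and the difference of -0.13 ± 0.03 had an adjusted p in limma of 0.0985.

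Of 8 genes that make, use or carry aspartate, 0 passed, with a median of 0.00. Those with the smallest p were Got1l1 (0.06), Nat8l, which makes N-acetylaspartate (-0.09), and Asns, asparagine synthetase (0.07). Of 8 peroxisomal oxidases, catalase and import receptors, 0 passed, with a median of 0.02, and the smallest p belonged to the acyl-CoA oxidase Acox3 (-0.12), Cat, which encodes catalase (0.11), and Acox2 (0.13). Ddo was thus the gene with the largest difference among the peroxisomal oxidases measured here, as a description.

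Of 8 genes of glutamate uptake, synthesis and vesicle loading, 0 passed, with a median of -0.04. Slc17a8, the vesicular transporter VGLUT3, differed by 0.31 ± 0.07 with an adjusted p in limma of 0.0577. Slc1a2, the main astrocytic glutamate transporter, differed by -0.10 and Slc1a3, the other astrocytic one, by 0.13, with adjusted p of 0.0941 and 0.159.

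The list with the widest shift was that of 12 immediate early genes, which neuronal activity induces in part through NMDA receptors. All 12 were lower in Dp1Rhr, with a median difference of -0.54, and 2 passed the test, Junb, an AP-1 transcription factor, at -0.32 ± 0.05 and Dusp1, a MAP kinase phosphatase, at -0.65 ± 0.12, with adjusted p in limma of 0.0269 and 0.0434. Btg2, an antiproliferative gene of the same list, differed by -0.39 ± 0.10 with an adjusted p of 0.0896. The mean of the list was 8.26 to 9.16 in the control arrays and at most 8.19 in the Dp1Rhr arrays, and the difference went from -0.51 to -0.27 without control replicates 2 and 3. The Junb call was kept in 4 and the Dusp1 call in 3 of the 10 leave-one-out fits, and neither was kept without control replicates 2 and 3.

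**Figure D5:**
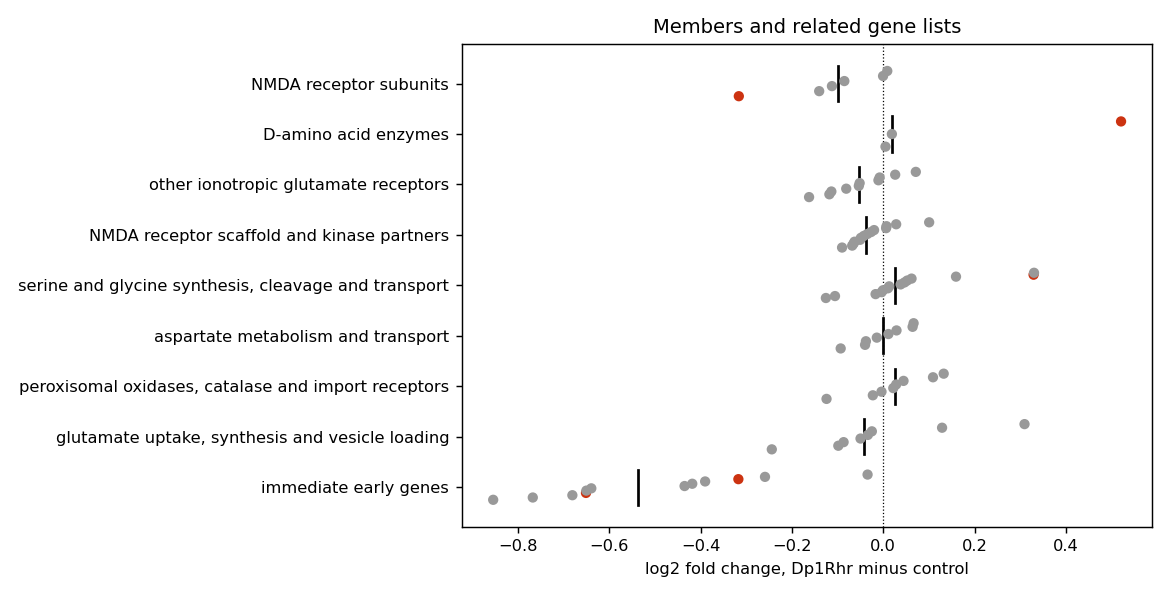
Difference in log2 signal, Dp1Rhr minus control, of each measured gene in the receptor, enzyme and pathway lists, 1 point per gene, with red for an adjusted p under 0.05 in limma and a bar for the list's median. The medians lie between -0.10 and 0.03 except for the immediate early genes, at -0.54.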

How the data were processed

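RNA from each mouse was hybridised to 1 Affymetrix Mouse Gene 1.0 ST array. The authors processed the scans with RMA and deposited log2 values, quantile normalized, so a change of all genes together could not be seen. limma and the build mm10 are named too in the submitters' notes, and the version of RMA is not given in the sources used here. Of 35556 probe sets, 21789 had exactly 1 symbol in the platform annotation, 1621 had several and 12146 were not listed. The brightest probe set was used for each of 19938 genes, and 21698 named probe sets matched RefSeq genes of GRCm38.

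Dp1Rhr was compared with control by limma 3.58.1 under R 4.3.3 (lmFit and eBayes, two-sided, Benjamini-Hochberg over all genes, threshold 0.05). The study's FCROS method, which sets limits on a statistic of ranked fold changes, was an alternative, with a trim of 0.25 and limits of 0.025 and 0.975. Genes, lists and tests were chosen with earlier results of these data known. Genes named from a list were those that passed, filled up to 3 by the smallest p. Replicates are separate mice per the labels, and the number of arrays limits precision.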

Additional observations from a re-analysis of the deposited data

Results flagged for a closer look

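In 70 groups of 5 arrays, made of the 9 genes, 2 of their signal ratios, 3 further genes and the marker and pathway lists, 6 held an array far from the other 4 by Dixon's criterion (chance meets it in about 5% of groups). Grin2c measured 8.10 in Dp1Rhr replicate 5, against 7.76 to 7.84 in the other Dp1Rhr arrays. Grin2d measured 7.90 in control replicate 5, against 8.06 to 8.11 in the other controls, and 8.10 in Dp1Rhr replicate 4, against 8.05 to 8.06 in the other Dp1Rhr arrays. The mean of the pyramidal neuron markers was 11.86 in control replicate 2, against 11.74 to 11.77 in the other controls. The mean of the cerebellar granule cell markers was 6.07 in the same array, against 5.92 to 5.96. The mean of the meninges markers was 8.59 in Dp1Rhr replicate 3, against 8.71 to 8.75 in the other Dp1Rhr arrays.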

How the results depend on the processing

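Of all genes, 160 passed, as did 2 genes of the receptor and enzyme list and 3 of the pathway lists (Gldc, Junb and Dusp1). These counts were 4, 1 and 0 with the replicate number as a block, 5, 0 and 0 without control replicates 2 and 3, and 7, 1 and 0 with the choroid plexus mean as a covariate. Array weights gave 280 genes in all, and a trended and robust prior gave 5 pathway genes. FCROS gave 1075 genes in all, or 5.39%, and 16 of the 74 pathway genes. Leaving out 1 array gave 5 to 284 genes in all, 1 to 2 of the receptor and enzyme list and 0 to 6 of the pathway lists. Of the Dp1Rhr group, the total was 5 with replicate 1 left out, 10 for replicate 2, 12 for replicate 4 and 284 for replicate 5. Of the control group, it was 19 for replicate 2, 42 for replicate 3 and 12 for replicate 5. Equal replicate numbers did not pair the arrays, with correlations of deviations from -0.34 to 0.12 and 0 of 5 arrays best matched to their own number. Under the block Grin2c had an adjusted p in limma of 0.112 and Ddo 0.0495.

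The change of Grin2b minus Grin2a was 0.048 without control replicates 2 and 3 and ranged from -0.056 to 0.0056 over the leave-one-out fits. Grin3b turned to 0.0053 with a second quantile normalization, 0.00017 centred on the array median and 0.0055 with the choroid plexus covariate, and ranged from -0.050 to 0.035 with 1 array left out. Grin2d ranged from -0.029 to 0.024 and Srr from -0.0058 to 0.024. The cause of these changes was not tested. The filter on dim genes left out Grin3b and Dao.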

Other observations

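Among the subunits, Grin2a and Grin2b deviated together within the groups, with a correlation of 0.65 over the 10 arrays, and Grin2d and Grin3a with one of 0.80. Both are given as descriptions of arrays that share their normalization. The mean of 5 pyramidal neuron markers was 11.74 to 11.86 in control and 11.70 to 11.75 in Dp1Rhr arrays, with 0 of 5 higher. Dp1Rhr replicate 5 lay inside the control range, and the other Dp1Rhr arrays lay below every control array. The difference was -0.06, and -0.03 without control replicates 2 and 3.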
